A study of Mus musculus with 24 samples.

Results

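The mouse mitochondrial chromosome carries 37 annotated genes, and these were followed in bone marrow cells of wild-type and Nrf2-KO mice after spaceflight. The members were taken by position and name, as every gene of the mitochondrial chromosome whose GENCODE vM21 symbol starts with mt-. They comprise 13 protein-coding genes, 2 rRNA genes and 22 tRNA genes, among 54752 genes in the deposited table. The study sequenced RNA of 24 male C57BL/6 mice, 6 in each group. GC-WT and GC-KO mice were wild-type and Nrf2-KO mice kept on the ground in the same kind of cage, and FL-WT and FL-KO mice spent 31 days at the International Space Station. Marrow of the right pelvis and tibia was taken 2 days after landing from flight mice and on the matching day from ground mice, and the cells were frozen before RNA was prepared. Flight mice were 8 weeks old when they travelled to the launch site, 3 weeks before launch. Flight mice were handled in the United States and ground mice in Japan, so flight and place cannot be told apart.

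Mitochondrial DNA is a small circle that is read from both strands into long precursor RNAs. Most of its mRNAs and rRNAs are flanked by tRNAs, and cutting the tRNAs out releases them. All its proteins are membrane subunits of the respiratory chain or of the ATP synthase, where they assemble with many subunits made from nuclear genes. Its rRNAs build the mitochondrial ribosome that translates them. In bone marrow, developing red cells use mitochondria to make haem and then discard them, while mature neutrophils rely little on respiration. Nrf2, encoded by Nfe2l2, is a transcription factor that switches on genes against oxidative stress.

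Values are TPM, a share of all transcripts that is scaled by gene length and to the same sum in every library, so a gene's TPM depends on all other genes. The files hold no read counts, and sequencing depth is therefore unknown. Each difference was tested by limma, with log2(TPM + 1) as the measure, over the 12373 genes above 1 TPM in at least 1 library, with Benjamini-Hochberg adjustment over all of them. A gene passed at an adjusted p under 0.1, and was called a differentially expressed gene (DEG) if the fold change was also at least 2. Bulk RNA cannot tell fewer cells of a type from less RNA per cell. Nfe2l2 averaged 21.3 ± 3.19 TPM in GC-WT (SD, n = 6) and 18.6 ± 5.93 TPM in FL-WT mice, and 4.97 ± 1.25 TPM in GC-KO mice against 3.06 ± 0.794 TPM in FL-KO mice.

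Of the 37 genes, 15 were measured and the 22 tRNA genes were listed at 0 TPM in all 24 libraries. The tRNA genes are 59 to 75 bases long. All 5889 other annotated genes under 150 bases were also at 0, and the shortest gene with any value was 168 bases long, so the table shows nothing about the tRNAs. The 2 rRNAs and 13 mRNAs were above 0 in every mouse and all passed the filter on low values.

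Mitochondrial genes are packed so tightly that some share bases, and reads from the shared bases cannot be assigned with certainty. mt-Atp8 and mt-Atp6, subunits of the ATP synthase, overlap by 43 bases on the same strand, and mt-Atp8 is only 204 bases long. The end of mt-Atp8 (chrM:7910-7969, plus strand, build mm10) and the start of mt-Atp6 (chrM:7927-7986, plus strand) are shown because these genes had the largest log2 fold changes with flight in wild-type mice, and the capitals mark the bases they share.
mt-Atp8 end: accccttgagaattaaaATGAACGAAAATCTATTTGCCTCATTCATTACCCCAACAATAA
mt-Atp6 start: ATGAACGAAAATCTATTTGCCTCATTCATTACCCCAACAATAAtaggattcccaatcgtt
mt-Nd4l and mt-Nd4 share 7 bases in the same way.

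mt-Nd6 is the protein-coding gene of the other strand, and its end runs into the end of mt-Nd5 over 14 bases. The end of mt-Nd5 (chrM:13526-13565, plus strand) and the end of mt-Nd6 (chrM:13552-13591, minus strand) are shown because the ratio of these genes is described later, and the capitals mark the overlap, each read on its own strand.
mt-Nd5 end: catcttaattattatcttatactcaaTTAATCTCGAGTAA
mt-Nd6 end: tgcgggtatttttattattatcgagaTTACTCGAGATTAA
The library kit keeps strand, but the strand setting of the read counting is not given in the sources used here. If strand was not used, reads of mt-Nd6 and antisense reads of its neighbours cannot be told apart.

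The 13 mRNAs spanned a wide range of levels per length. mt-Co1, the catalytic subunit of cytochrome c oxidase, was the most abundant with a mean of 2711 TPM over the 24 mice. mt-Nd3, a subunit of NADH dehydrogenase, and mt-Co3, a further subunit of cytochrome c oxidase, followed at 1151 and 1110 TPM. mt-Atp8 (649 TPM), mt-Atp6 (613 TPM), mt-Co2 (573 TPM), mt-Nd1 (506 TPM), mt-Cytb (436 TPM), mt-Nd4 (373 TPM) and mt-Nd4l (294 TPM) lay in the middle. mt-Nd2, mt-Nd5 and mt-Nd6 were lowest at 184, 179 and 82.1 TPM. The neighbours mt-Nd3 and mt-Co3 changed places between groups, since mt-Co3 averaged 1178 ± 119 TPM and mt-Nd3 1088 ± 215 TPM in FL-KO mice, against 1224 ± 266 and 1373 ± 286 TPM in FL-WT mice, and their ranges overlapped in each group.

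The rRNAs of the small and large mitochondrial ribosomal subunit, mt-Rnr1 and mt-Rnr2, come from the same precursor but differed widely in level. mt-Rnr2 averaged 1853 TPM and mt-Rnr1 21.9 TPM. In GC-WT mice, mt-Rnr2 exceeded mt-Rnr1 41.7 to 163-fold. Whether the libraries were made by poly(A) selection or by rRNA removal is not given in the sources used here, and the part of library preparation in this gap was not tested.

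**Figure D1:**
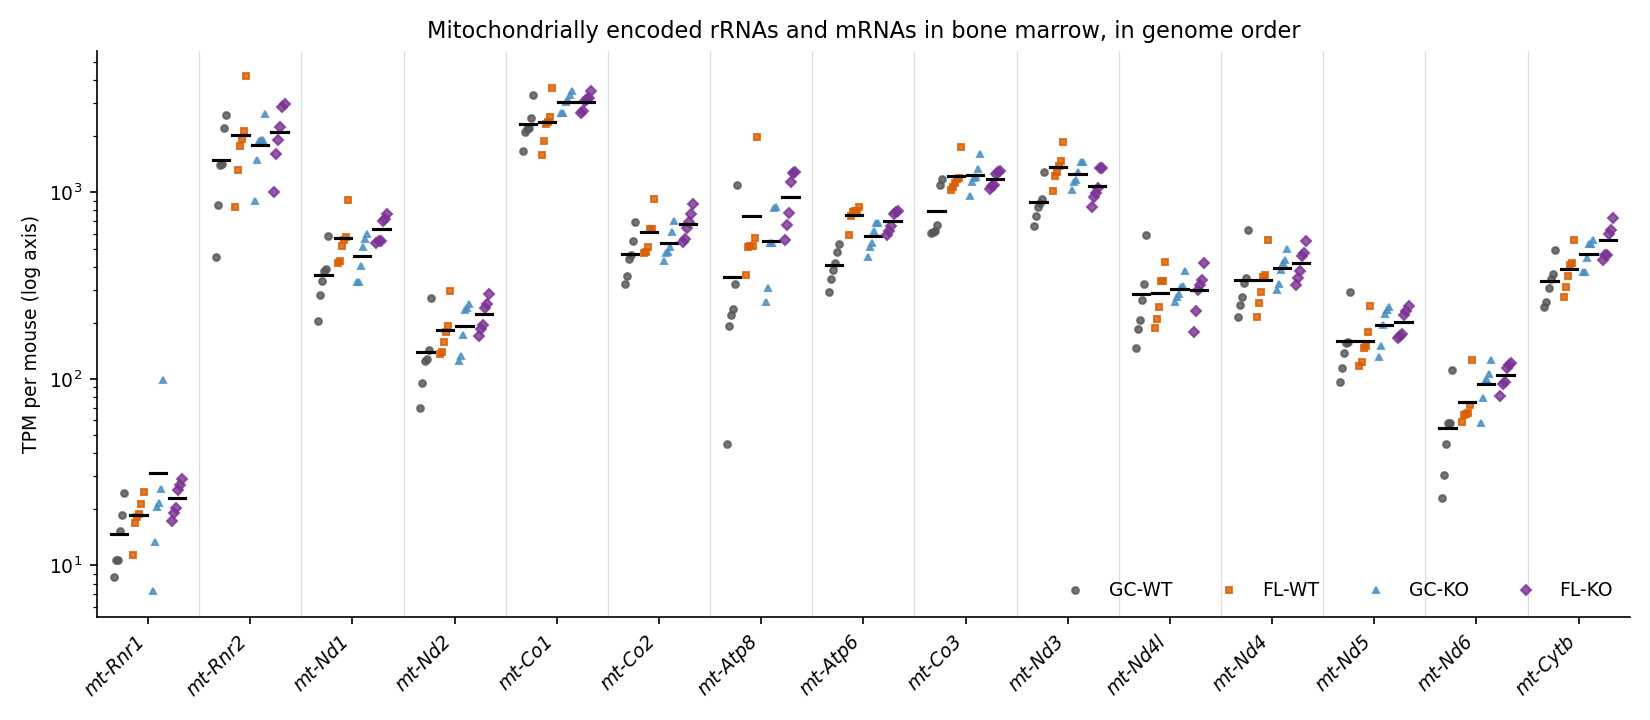
TPM of each rRNA and mRNA of the mitochondrial chromosome in each mouse, on a log axis, with genes in genome order and a black bar at the group mean of 6 mice. mt-Atp8 had the widest spread, from 44.9 TPM in GC-WT mouse 10 to 1989 TPM in FL-WT mouse 10, while mt-Co1 lay between 1578 and 3605 TPM in all 24 mice.

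Mice of a group differed from each other in most of the mRNAs together. GC-WT mouse 6 had the highest value of its group for 12 of the 13 mRNAs, FL-WT mouse 10 for all 13 and FL-KO mouse 11 for 12. At the low end, FL-KO mouse 4 was lowest for 9, and GC-WT mouse 10 and FL-WT mouse 5 were each lowest for 7. The highest of the 24 values was 44.3 times the lowest for mt-Atp8, but 2.28 times for mt-Co1 and 2.83 times for mt-Atp6.

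The summed share of all TPM held by the 13 mRNAs was 0.692 ± 0.206% in GC-WT and 0.910 ± 0.251% in FL-WT mice (SD, n = 6). Nrf2-KO mice had 0.933 ± 0.0716% on the ground and 1.01 ± 0.153% after flight. Single shares ran from 0.511 to 1.10% in GC-WT mice and from 0.742 to 1.41% in FL-WT mice, and the ranges of both groups overlapped. In the same libraries 5 abundant small RNAs, led by Rn7s2 and Rn7sk, took 48.6 and 47.8% of TPM in wild-type mice on the ground and after flight, and 44.5 and 51.1% in Nrf2-KO mice. Without these 5 RNAs the mRNAs held 1.35, 1.75, 1.69 and 2.08% of TPM.

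Several mitochondrial mRNAs have near-identical copies in the nuclear genome that had TPM of their own. Whether these values are reads of the mitochondrial gene or of the copy cannot be told apart in the table. Of the copies of at least 300 bases and 95% identity, 6 had a mean above 1 TPM. All 6, together with the 294-base Gm10222, lie side by side on the minus strand of chromosome 1 (24611535 to 24616197, build mm10) and are annotated as unprocessed pseudogenes. The start of mt-Co2 (chrM:7013-7072, plus strand) and the start of its copy Gm28661 (chr1:24615506-24615565, minus strand) are shown as the pair in which the copy held the largest share, with the first codon in capitals.
mt-Co2 start: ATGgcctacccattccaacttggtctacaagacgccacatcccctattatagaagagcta
Gm28661 start: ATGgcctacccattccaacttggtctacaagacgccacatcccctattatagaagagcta
These 60 bases are the same in both, and so are all 681 bases of the copy.

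mt-Nd3 and its copy Gm28438 differ at 1 of 345 compared bases, T3C, counted from the first base of mt-Nd3, with the base of mt-Nd3 given before the position and that of the copy after it. The windows at chrM:9459-9481 (plus strand) and chr1:24613097-24613119 (minus strand) show this base in capitals.
mt-Nd3 window: atTaacctgtacactgttatctt
Gm28438 window: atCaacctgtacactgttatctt

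The copy's share of the summed TPM differed between genes. Gm28661 held a median of 71.1 to 74.5% of the summed TPM of mt-Co2 and itself in the 4 groups. Gm10925 held 50.6 to 60.2% of the sum with mt-Atp6, and Gm28437 held 53.9 to 56.9% of the sum with mt-Co3. The share of Gm28438 beside mt-Nd3 was 5.72 to 8.92%, while the median of Gm29216 beside mt-Co1 was at most 1.42% and that of Gm28439 beside mt-Nd4 at most 0.336% in the 4 groups.

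Shares also differed between mice. GC-WT mouse 10 gave the lowest share of its group for Gm10925 (28.5%), Gm28661 (65.8%), Gm28437 (36.2%), Gm28438 (1.71%) and Gm10222 (9.90%). FL-WT mouse 5 and GC-KO mouse 2 were lowest in their groups for Gm10925, Gm28661 and Gm28437. Gm10222, the copy of mt-Nd4l, had a median share of 13.5% in GC-WT mice, against 35.8% in FL-WT mice. Its share was 33.4% in GC-KO mice, against 44.5% in FL-KO mice, and it stood at 0.38 TPM in FL-WT mouse 6. Values with the copy added are given for mt-Atp6, mt-Co2, mt-Co3, mt-Nd3 and mt-Nd4l in comparisons where these genes are described. Gm10222 is below the limit of 300 bases and was added under a limit of 200 bases chosen after seeing the data.

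**Figure D2:**
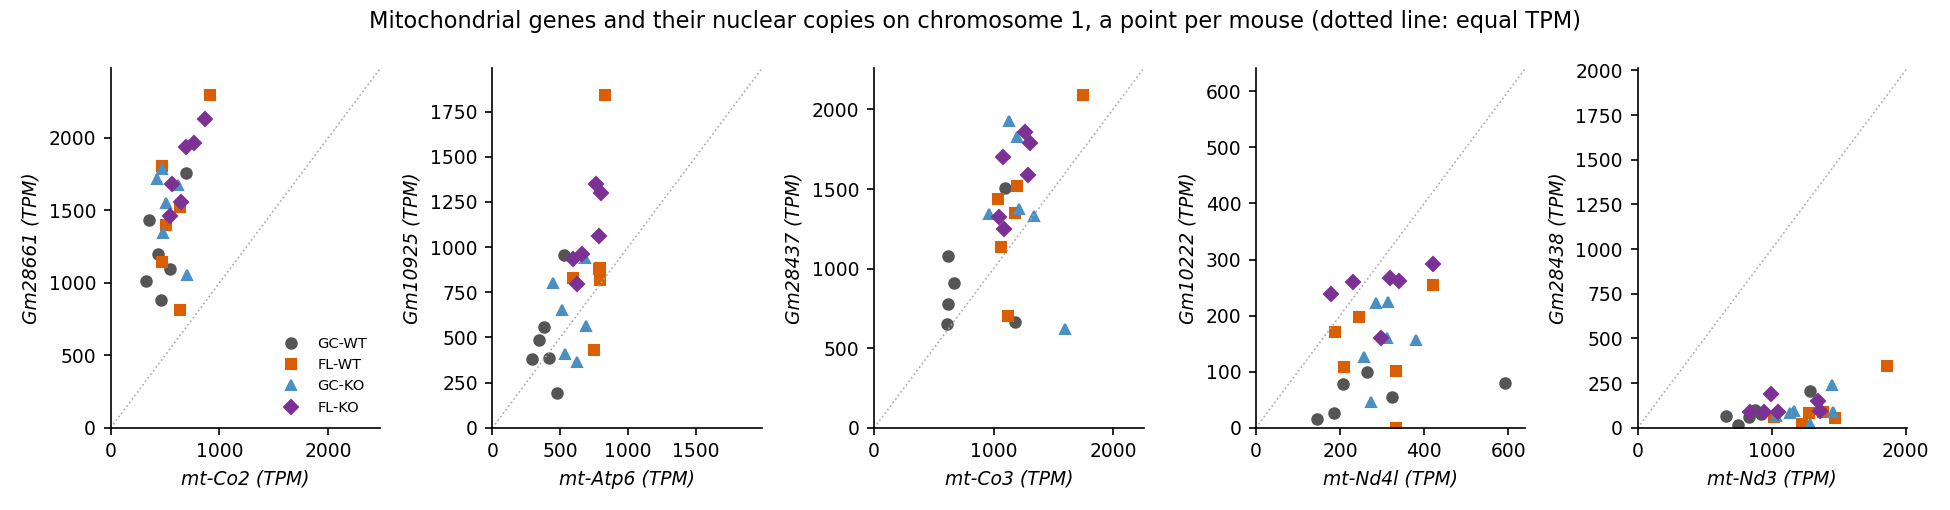
TPM of 5 mitochondrial genes (horizontal axes) and of their nuclear copies on chromosome 1 (vertical axes), with a point for each mouse and a dotted line at equal TPM. The points of mt-Co2 lie above the line, since Gm28661 held a median of 71.1 to 74.5% of the sum, and those of mt-Nd3 lie near the horizontal axis.

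The comparison of FL-WT vs. GC-WT asked how spaceflight changed marrow of wild-type mice. Of the 13 mitochondrial mRNAs, 7 rose and none fell at an adjusted p under 0.1, where 0.994% of all tested genes rose and 39.0% fell. They were mt-Atp8, mt-Atp6, mt-Co3, mt-Nd3, mt-Nd1, mt-Nd6 and mt-Co2. All 13 log2 fold changes were above 0, as in 13.3% of tested genes, and their median was 0.47 against −0.24 for all tested genes. By complex, both subunits of the ATP synthase passed, with 2 of 3 of cytochrome c oxidase, 3 of 7 of NADH dehydrogenase and not mt-Cytb, the subunit of the cytochrome bc1 complex.

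mt-Atp6, which forms part of the proton channel of the ATP synthase, was the mRNA whose groups did not overlap, a property of 0.097% of tested genes. Its lowest, median and highest values were 293, 402 and 528 TPM in GC-WT mice and 593, 790 and 830 TPM in FL-WT mice. Every FL-WT mouse thus lay above every GC-WT mouse. The log2 fold change was 0.91 ± 0.14 (SE), with an adjusted p of 6.68e-05 from limma. With Gm10925 added, the log2 fold change was 0.93 ± 0.18 (limma adjusted p 0.000911), and the summed values overlapped, since GC-WT mice reached 1477 TPM and FL-WT mice went down to 1178 TPM.

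mt-Atp8, a small companion subunit whose reading frame runs into that of mt-Atp6, was the only mitochondrial DEG in this comparison, against 0.0647% of tested genes called as higher DEGs. It was at 44.9, 229 and 1094 TPM (lowest, median and highest) in GC-WT mice and at 359, 517 and 1989 TPM in FL-WT mice. The groups overlapped because GC-WT mouse 6 exceeded every FL-WT mouse except mouse 10. The log2 fold change was 1.40 ± 0.48, with a limma adjusted p of 0.0314. Without GC-WT mouse 10, the lowest of all, it was 0.93 with an adjusted p of 0.0808 and was under 2-fold.

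mt-Co3 and mt-Nd3 also rose. mt-Co3 was at 607, 646 and 1176 TPM in GC-WT mice and 1036, 1151 and 1753 TPM in FL-WT mice. The log2 fold change of mt-Co3 was 0.65 ± 0.16 (limma adjusted p 0.00566), and 0.59 ± 0.16 (adjusted p 0.00945) with Gm28437 added. mt-Nd3 went from a median of 855 TPM (661 to 1289) to 1333 TPM (1015 to 1862), with a log2 fold change of 0.64 ± 0.16 (limma adjusted p 0.00477), and 0.61 ± 0.17 (adjusted p 0.0112) with Gm28438 added. In both genes 3 of 6 FL-WT mice lay above all GC-WT mice.

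mt-Nd1 and mt-Nd6 are further subunits of NADH dehydrogenase that rose. mt-Nd1 had 204, 357 and 585 TPM on the ground and 420, 537 and 909 TPM after flight, with a log2 fold change of 0.67 ± 0.21 (limma adjusted p 0.0198). mt-Nd6 was at 22.9, 51.2 and 112 TPM and at 58.8, 65.4 and 126 TPM, with a log2 fold change of 0.59 ± 0.25 (limma adjusted p 0.0769). mt-Co2, the subunit of cytochrome c oxidase that receives electrons from cytochrome c, stood at the threshold with a log2 fold change of 0.38 ± 0.18 and a limma adjusted p of 0.0999, and did not pass when Gm28661 was added (0.29 ± 0.16, adjusted p 0.164).

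The remaining mRNAs did not pass. mt-Nd2 had a log2 fold change of 0.47 ± 0.24 (limma adjusted p 0.134). The longest mRNAs, mt-Nd5, mt-Co1, mt-Nd4 and mt-Cytb, of 1144 to 1824 bases, had log2 fold changes of 0.016 to 0.21, with mt-Co1 at a median of 2194 TPM on the ground and 2345 TPM after flight. The 4 shortest, of 204 to 519 bases, ran from 0.11 for mt-Nd4l to 1.40 for mt-Atp8. With Gm10222 added, mt-Nd4l had 0.40 ± 0.24 (limma adjusted p 0.193). Across the 13 mRNAs, which share libraries, the Spearman correlation of log2 fold change with length was −0.637, and across 12370 tested genes with a known length it was −0.375.

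The number of mRNAs that rose in FL-WT vs. GC-WT was 5 to 8 when any of the 12 mice was left out. mt-Atp6, mt-Co3, mt-Nd3, mt-Nd1 and mt-Atp8 stayed under an adjusted p of 0.1 each time. mt-Nd6 did not pass (limma adjusted p 0.108 to 0.2) without GC-WT mouse 3, 8 or 10 or FL-WT mouse 3, 6 or 10, and mt-Co2 did not (0.107 to 0.254) without GC-WT mouse 3, 5, 7 or 10 or FL-WT mouse 5, 7 or 10. mt-Nd2 passed (0.0326) without GC-WT mouse 6. Median-of-ratios scaling, which centres each library on its typical gene, moved the median of all genes from −0.24 to 0.0022 and the calls over all genes from 0.994% higher and 39.0% lower to 17.4% higher and 15.9% lower. With it, 10 mitochondrial mRNAs rose and none fell. With the trends of GC content and length removed in each library, 6 of 13 rose where 18.0% of all genes did, and the median of the mRNAs relative to all genes went from 0.72 to 0.40.

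Markers of other cell types moved in the same comparison. The summed TPM of 10 neutrophil markers ran from 30150 to 55990 in GC-WT and from 44700 to 62490 in FL-WT mice, and 5 of the 10 rose while none fell. The sum of 8 B lineage markers ran from 205 to 300 TPM and from 94.9 to 240 TPM, and all 8 fell. The sum of the 9 erythroid markers in the table ran from 86960 to 203800 TPM and from 144900 to 206900 TPM, a sum made up mostly of globins. Of these 9, none rose and 4 fell, with Slc4a1, the anion exchanger of red cells, Epor and Tfrc, the receptors for erythropoietin and transferrin, as DEGs. Slc4a1 averaged 438 ± 125 TPM on the ground and 194 ± 38.3 TPM after flight, with a log2 fold change of −1.15 ± 0.20 (limma adjusted p 0.000274). Of 5 megakaryocyte markers, 4 fell. Among all tested genes 0.994% rose and 39.0% fell, and the 44.4% of erythroid markers that fell was near that share. Vpreb3 and Rag1 of the B lineage were also DEGs. No defining marker of these lists was at 0 in either group. The part of cell composition in the mitochondrial values was not tested.

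**Figure D3:**
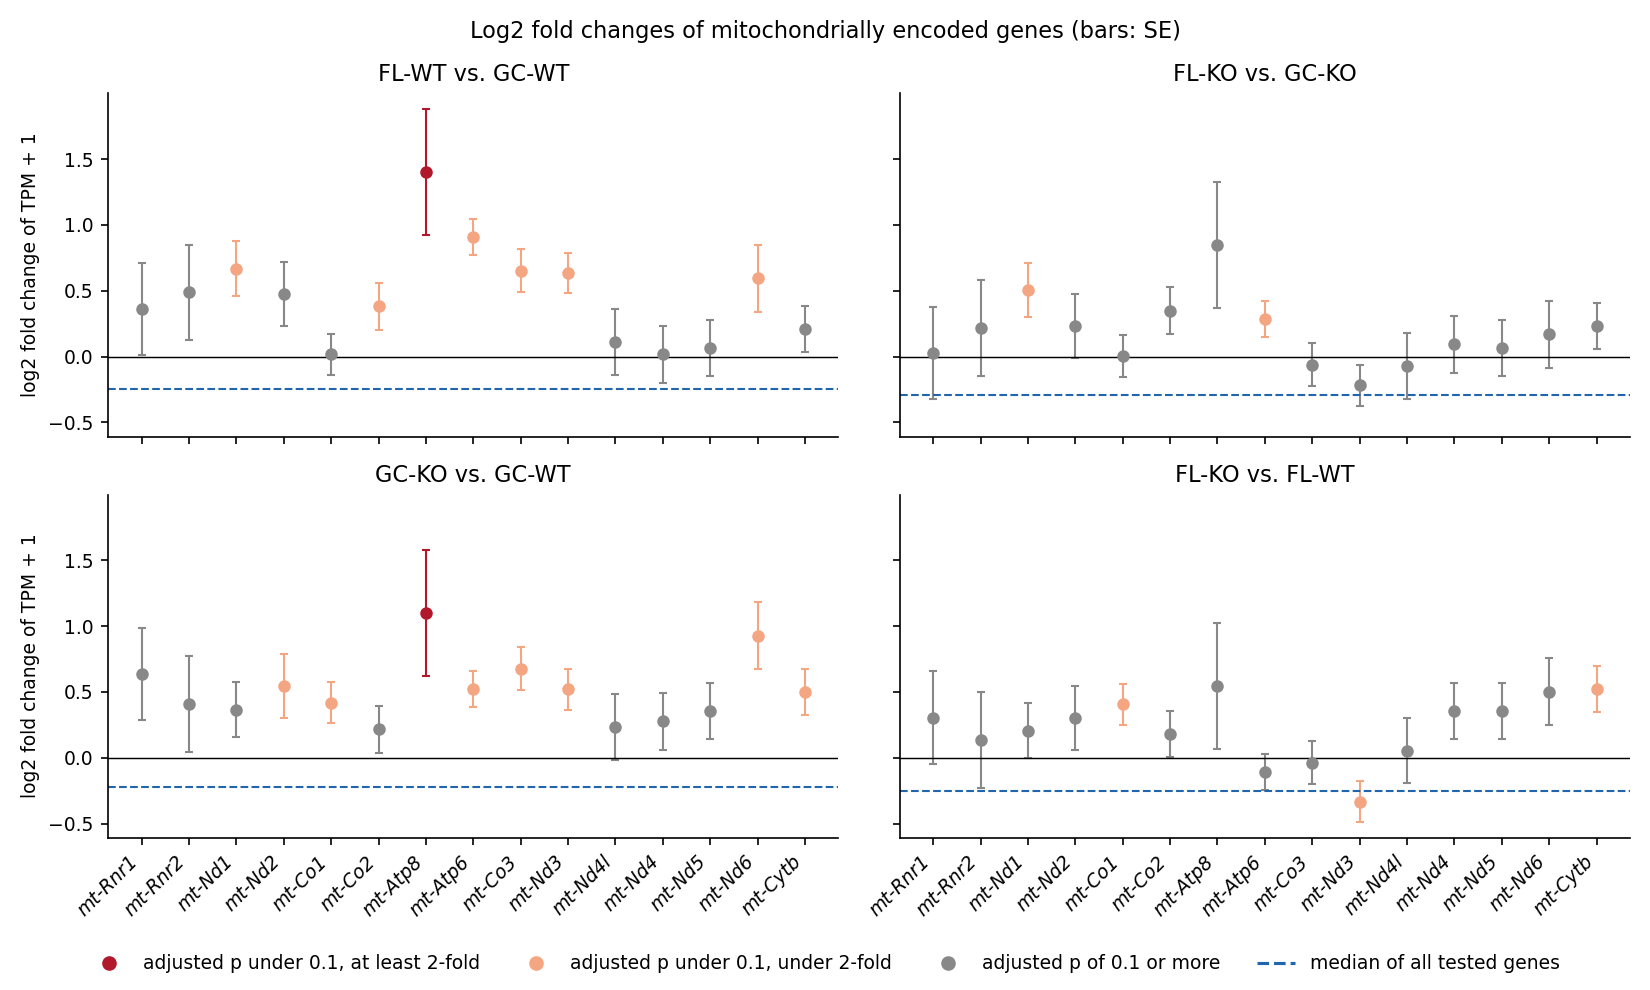
Log2 fold changes of TPM + 1 for the rRNAs and mRNAs in genome order, with bars for the standard error, in the 4 comparisons of groups of 6 mice. Dark red points passed with at least 2-fold, light red points passed with less, grey points did not pass, and the dashed line is the median of all tested genes, which lies at −0.24 in FL-WT vs. GC-WT, below all 13 mRNAs.

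The comparison of FL-KO vs. GC-KO asked the same of Nrf2-KO mice. Here 2 of the 13 mRNAs rose and none fell, where 0.299% of tested genes rose and 53.1% fell. None of the 13 was a DEG by limma and no tested gene was a higher DEG (0.0%), and the same 2 mRNAs were those with an unadjusted p under 0.05. The median log2 fold change was 0.17 against −0.29 for all tested genes, and 10 of the 13 were above 0, as in 6.29% of tested genes. No mRNA separated the groups, as 0.0323% of tested genes did in this direction.

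mt-Nd1 was at 332, 455 and 601 TPM (lowest, median and highest) in GC-KO mice and at 536, 627 and 764 TPM in FL-KO mice. The ranges overlapped, and the log2 fold change was 0.51 ± 0.21 with a limma adjusted p of 0.0503. mt-Atp6 was at 449, 580 and 689 TPM and at 591, 715 and 798 TPM, with a log2 fold change of 0.29 ± 0.14 (limma adjusted p 0.091). With Gm10925 added, mt-Atp6 had a log2 fold change of 0.56 ± 0.18 (adjusted p 0.018). Gm10925 itself was at 365 to 941 TPM in GC-KO and 794 to 1347 TPM in FL-KO mice.

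mt-Atp8 had the largest difference of the 13 but did not pass. It was at 258, 536 and 838 TPM in GC-KO and at 556, 956 and 1286 TPM in FL-KO mice, with a log2 fold change of 0.85 ± 0.48 (limma adjusted p 0.145). mt-Nd3, mt-Nd4l and mt-Co3 had log2 fold changes of −0.22, −0.069 and −0.061, none of which passed. With their copies added, mt-Co3 had 0.066 ± 0.16 (limma adjusted p 0.736) and mt-Nd3 −0.18 ± 0.17 (limma adjusted p 0.39). mt-Nd4l then had 0.24 ± 0.24 (limma adjusted p 0.4). mt-Co1 was almost level, with medians of 3092 TPM in GC-KO and 3141 TPM in FL-KO mice.

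The 2 calls in FL-KO vs. GC-KO depended on single mice. The count was 0 to 3 when a mouse was left out, with 0 without GC-KO mouse 4. mt-Atp6 did not pass (limma adjusted p 0.111 to 0.24) without GC-KO mouse 4, 11 or 12 or FL-KO mouse 1, 2, 11 or 12, and mt-Nd1 did not (0.103 to 0.108) without GC-KO mouse 2 or 4. mt-Co2 passed (0.06 to 0.086) without GC-KO mouse 2 or FL-KO mouse 4. With median-of-ratios scaling the calls over all genes went from 0.299% higher and 53.1% lower to 18.1% higher and 21.6% lower, and 10 mitochondrial mRNAs rose. Neutrophil markers summed to 41930 to 64330 TPM in GC-KO and 50150 to 67420 TPM in FL-KO mice, and B lineage markers to 132 to 198 TPM and 74.1 to 125 TPM. Of 9 erythroid markers 5 fell, again with Slc4a1, Epor and Tfrc as DEGs, and all 8 B lineage and all 5 megakaryocyte markers fell. Among all tested genes 53.1% fell, near the 55.6% of the erythroid markers.

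Whether flight acted differently in wild-type and Nrf2-KO mice was tested as the interaction of flight and genotype. None of the 13 mRNAs passed in limma, as did no rRNA. At an unadjusted p under 0.05, 3 mRNAs had a smaller flight difference in Nrf2-KO mice and none a larger, where 3.03% and 0.428% of tested genes did so. For mt-Nd3 the interaction was −0.85 ± 0.22 on the log2 scale (limma adjusted p 0.401), as flight and ground values were 1373 ± 286 and 889 ± 218 TPM in wild-type and 1088 ± 215 and 1255 ± 173 TPM in Nrf2-KO mice. For mt-Co3 it was −0.71 ± 0.23 (adjusted p 0.909) and for mt-Atp6 −0.63 ± 0.19 (adjusted p 0.821). With nuclear copies added the interaction was −0.78 ± 0.24 for mt-Nd3 (limma adjusted p 0.839), −0.52 ± 0.23 for mt-Co3 (adjusted p 1.0) and −0.37 ± 0.26 for mt-Atp6 (adjusted p 1.0), and that of mt-Atp6 was then above an unadjusted p of 0.05 (0.171). No interaction passed, so the larger number of calls in wild-type mice does not show a difference between genotypes.

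The comparison of GC-KO vs. GC-WT asked what loss of Nrf2 changed on the ground, and it shares the GC-WT mice with FL-WT vs. GC-WT. Of the 13 mRNAs, 8 were higher and none lower in GC-KO mice at an adjusted p under 0.1, where 3.13% of tested genes were higher and 42.9% lower. All 13 log2 fold changes were above 0, as in 22.7% of tested genes. Their median was 0.50 against −0.22 for all tested genes. No mRNA separated the groups, as 0.218% of tested genes did in this direction.

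mt-Nd6, the subunit encoded on the other strand, was at 22.9, 51.2 and 112 TPM in GC-WT mice and at 58.3, 98.0 and 127 TPM in GC-KO mice. GC-WT mouse 6 lay within the range of GC-KO mice, and the log2 fold change was 0.93 ± 0.25 (limma adjusted p 0.00558). mt-Co3 reached a median of 1203 TPM (961 to 1596) against 646 TPM in GC-WT mice, with a log2 fold change of 0.68 ± 0.16 (limma adjusted p 0.00226), and 0.64 ± 0.16 (adjusted p 0.00273) with Gm28437 added. mt-Atp6, at a median of 580 TPM against 402 TPM, had 0.52 ± 0.14 (limma adjusted p 0.00409), and 0.45 ± 0.18 (adjusted p 0.053) with its copy added.

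mt-Nd3 (0.52 ± 0.16, limma adjusted p 0.00989, and 0.50 ± 0.17 with its copy added, adjusted p 0.0211) and mt-Nd2 (0.54 ± 0.24, limma adjusted p 0.0781) of NADH dehydrogenase were also higher. mt-Cytb, the heme-carrying core subunit of the cytochrome bc1 complex, was at 244, 326 and 492 TPM in wild-type and 373, 486 and 555 TPM in Nrf2-KO mice, with a log2 fold change of 0.50 ± 0.18 (limma adjusted p 0.0258). mt-Co1 was at 1664, 2194 and 3320 TPM and at 2660, 3092 and 3515 TPM, with 0.42 ± 0.16 (limma adjusted p 0.0362). In both genes the groups overlapped. mt-Nd4l did not pass (0.23 ± 0.25, limma adjusted p 0.492), but it passed with Gm10222 added (0.53 ± 0.24, adjusted p 0.0772).

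mt-Atp8 was a DEG here as well, with a log2 fold change of 1.10 ± 0.48 (limma adjusted p 0.0702), where 0.129% of tested genes were higher DEGs. The call was lost without GC-WT mouse 3 (adjusted p 0.108), 8 (0.105) or 10 (0.232), or GC-KO mouse 1 (0.114), 9 (0.143) or 12 (0.139). Without GC-WT mouse 10 the log2 fold change fell to 0.63. mt-Nd6 became a further DEG without GC-WT mouse 6 (1.17) or GC-KO mouse 2 (1.05), and without GC-WT mouse 6 the count of higher mRNAs at any fold went from 8 to 12, as mt-Nd1, mt-Nd4, mt-Nd4l and mt-Nd5 also passed. mt-Nd2 did not pass (limma adjusted p 0.103 to 0.214) without GC-WT mouse 3, 5, 8 or 10 or GC-KO mouse 1, 9, 11 or 12. With median-of-ratios scaling the calls over all genes went from 3.13% higher and 42.9% lower to 29.8% higher and 27.8% lower, and all 13 mRNAs were higher.

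Markers of cell types differed between genotypes on the ground too. Of 10 neutrophil markers, 2 were higher and 5 lower in GC-KO mice, with the granule proteins Ltf and Mpo as DEGs. Mpo averaged 85.2 ± 53.7 TPM in GC-KO and 259 ± 79.7 TPM in GC-WT mice, with a log2 fold change of −1.72 ± 0.31 (limma adjusted p 0.000416). Of 9 erythroid markers, 3 were higher and 1 lower, and the globin Hbb-bs had a log2 fold change of 0.57 ± 0.18 (limma adjusted p 0.0114). Of the B lineage 5 of 8 were lower, and of the monocyte and macrophage markers 3 of 7, with Csf1r as a DEG. In the same comparison 3.13% of all tested genes were higher and 42.9% lower. The lower counts of neutrophil and of monocyte and macrophage markers were thus near the share of all genes, and that of the B lineage somewhat above it. The counts of higher markers, 3 of 9 erythroid and 2 of 10 neutrophil, were above the share of all genes. After flight, 6 of 10 neutrophil, 5 of 8 B lineage and 5 of 7 monocyte and macrophage markers were lower in FL-KO than in FL-WT mice, and 2 erythroid markers were higher and 2 lower. Of all tested genes, 1.91% were higher and 47.2% lower after flight. The lower counts of these short neutrophil, B lineage and monocyte and macrophage lists were thus only somewhat above the share of all genes. The part of cell composition in the mitochondrial values was not tested here either.

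The comparison of FL-KO vs. FL-WT asked what loss of Nrf2 changed after flight, and it uses the flight mice of the comparisons above. At an adjusted p under 0.1, 2 mRNAs were higher and 1 lower in FL-KO mice, where 1.91% of tested genes were higher and 47.2% lower. mt-Cytb was at 276, 382 and 557 TPM in FL-WT and 434, 532 and 729 TPM in FL-KO mice, with a log2 fold change of 0.52 ± 0.18 (limma adjusted p 0.0172). mt-Co1 was at 1578, 2345 and 3605 TPM and at 2677, 3141 and 3506 TPM, with 0.41 ± 0.16 (limma adjusted p 0.0374). FL-WT mouse 10 had the highest mt-Co1 of both groups.

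mt-Nd3 was lower in FL-KO mice, at 840, 1024 and 1358 TPM against 1015, 1333 and 1862 TPM in FL-WT mice. The log2 fold change was −0.33 ± 0.16 (limma adjusted p 0.0854), and with Gm28438 added it was −0.28 ± 0.17 (adjusted p 0.191). None of the 13 was a DEG by limma, where 0.097% of tested genes were higher DEGs, and 3 had an unadjusted p under 0.05. The median log2 fold change was 0.30 against −0.25 for all tested genes, and 10 of the 13 were above 0, as in 20.7% of tested genes. No mRNA was higher in FL-KO mice without overlap, as 0.307% of tested genes were. Without FL-WT mouse 10, 5 mRNAs were higher and none lower, and without FL-WT mouse 5, 1 was higher, since mt-Co1 did not pass (limma adjusted p 0.104). mt-Nd3 did not pass (0.102 to 0.228) without FL-WT mouse 5, 6, 7 or 10 or FL-KO mouse 1, 2, 4 or 9. With median-of-ratios scaling the calls over all genes went from 1.91% higher and 47.2% lower to 35.2% higher and 31.2% lower, and 11 mRNAs were higher and none lower.

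GC content and length were related to log2 fold changes across all genes, GC content most in the comparisons of genotype. The 13 mRNAs have a GC content of 31.9 to 41.1%, against a median of 49.1% over the tested genes. Across 12370 genes, the Spearman correlation of log2 fold change with GC content was −0.0285 for flight in wild-type and −0.287 for flight in Nrf2-KO mice. For genotype it was −0.43 on the ground and −0.512 after flight. Genes with low GC content were thus relatively higher in Nrf2-KO libraries. The 1384 tested genes with a GC content under the highest of the mRNAs had a median log2 fold change of 0.015 in GC-KO vs. GC-WT, against −0.22 for all genes. With length, the correlation was −0.375 for flight in wild-type and −0.323 for flight in Nrf2-KO mice. It was −0.347 for genotype on the ground and −0.282 after flight. Across the 13 mRNAs alone, the correlation with length was −0.637, −0.0879, −0.346 and 0.264 in the same order. The origin of these trends was not tested.

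With the trends of GC content and of length removed from each library, the median of the 13 mRNAs relative to all genes was 0.40 for flight in wild-type and 0.13 for flight in Nrf2-KO mice, where it had been 0.72 and 0.46. For genotype it was 0.046 on the ground and −0.17 after flight, where it had been 0.72 and 0.55. With this removal, 6 of 13 mRNAs rose with flight in wild-type mice, where 18.0% of all genes rose. With flight in Nrf2-KO mice 2 rose, mt-Nd1 and mt-Atp8 in place of mt-Nd1 and mt-Atp6, where 23.4% of all genes rose, so the members' share was not above that of other genes. For genotype on the ground the count went from 8 to 0, where 25.5% of all genes were higher. For genotype after flight none was higher and 3 were lower, where 33.9% of all genes were higher and 22.3% lower, and the 3 of 13 were near the share of all genes. No call of a higher mitochondrial mRNA in Nrf2-KO mice thus remained in this setting.

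**Figure D4:**
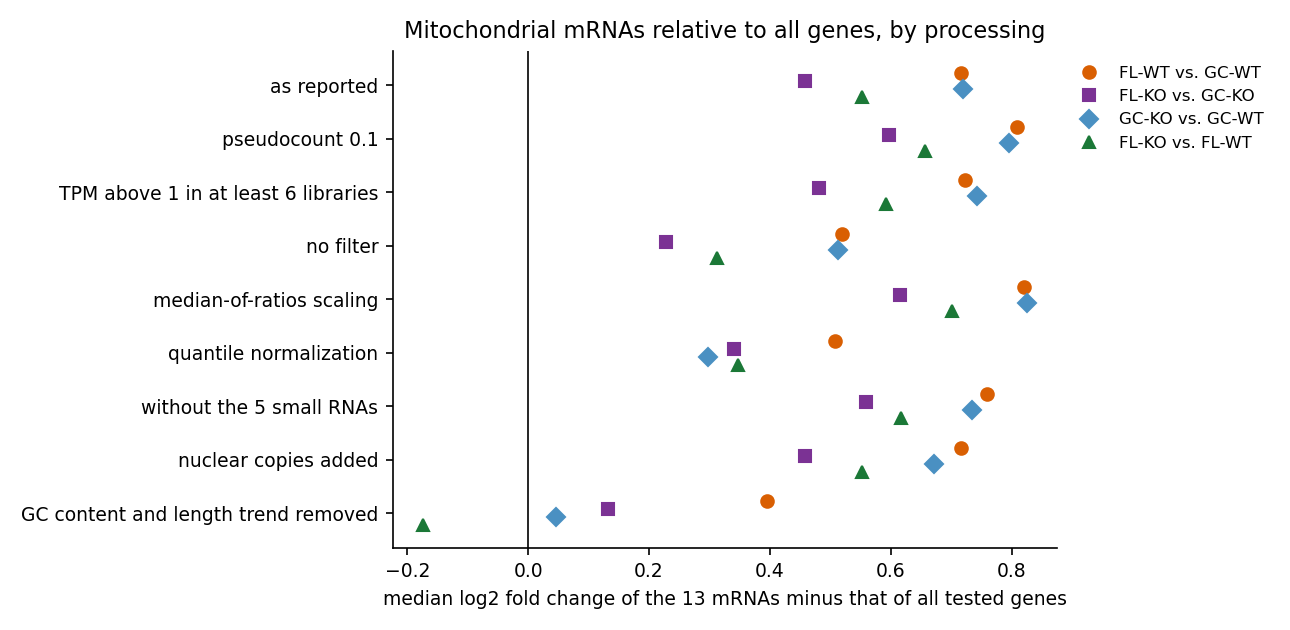
Median log2 fold change of the 13 mRNAs minus that of all tested genes (horizontal axis) in the 4 comparisons, as reported and under 8 other ways of processing. FL-WT vs. GC-WT stayed at 0.40 or above in all settings drawn, while both comparisons of genotype came near or below 0 once GC content and length trends were removed.

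Ratios of mitochondrial genes within a mouse do not depend on how libraries are scaled. Over 3 such ratios there were 12 tests, made as exact two-sided permutation tests of 6 against 6 mice, for which the smallest possible p is 0.00216, and p-values were adjusted over the 12. mt-Nd5 to mt-Nd1 compares the far and near parts of the precursor of the same strand. mt-Nd6 to mt-Nd5 compares neighbours on opposite strands. mt-Rnr1 to mt-Rnr2 compares the rRNAs. A difference in a ratio passed at an adjusted p under 0.05, not 0.1 as for single genes.

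The ratio of mt-Nd5 to mt-Nd1 was lower after flight in both genotypes, without overlap. In wild-type mice it was 0.435 ± 0.0532 (SD, n = 6) on the ground, from 0.363 to 0.502, and 0.284 ± 0.0208 after flight, from 0.260 to 0.321. In Nrf2-KO mice it was 0.431 ± 0.0471 on the ground, from 0.370 to 0.482, and 0.315 ± 0.0120 after flight, from 0.300 to 0.329. All 12 flight mice lay below all 12 ground mice. The log2 differences were −0.61 in wild-type and −0.45 in Nrf2-KO mice, each with an exact permutation p of 0.00216 and an adjusted p of 0.00866.

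The lower ratio came with a higher mt-Nd1 and an mt-Nd5 whose difference did not pass. The median of mt-Nd5 was 146 TPM on the ground and 148 TPM after flight in wild-type mice, and 208 and 198 TPM in Nrf2-KO mice. mt-Nd1 went from 357 to 537 TPM and from 455 to 627 TPM. With the trends of GC content and of length removed from each library, the log2 differences of the ratio were −0.50 (exact permutation, adjusted p 0.00866) and −0.32 (exact permutation, adjusted p 0.013). This setting was chosen after the data had been seen.

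Between genotypes, the log2 difference of the ratio of mt-Nd5 to mt-Nd1 on the ground was −0.0085 and did not pass (exact permutation, adjusted p 0.924). After flight it was 0.15 higher in Nrf2-KO mice (exact permutation, adjusted p 0.0312). This call was lost, with adjusted p between 0.0519 and 0.0675, when any of FL-WT mice 3, 5, 8 and 10 or FL-KO mice 1, 2, 4 and 11 was left out.

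The ratio of mt-Nd6 to mt-Nd5 was lowest in GC-WT mice at 0.326 ± 0.0603, against 0.471 ± 0.0572 in FL-WT mice, 0.486 ± 0.0788 in GC-KO mice and 0.520 ± 0.0396 in FL-KO mice. GC-WT values ran from 0.239 to 0.381 and GC-KO values from 0.390 to 0.603, so these groups did not overlap. The log2 difference was 0.55 in FL-WT vs. GC-WT (exact permutation, adjusted p 0.026) and 0.58 in GC-KO vs. GC-WT (exact permutation, adjusted p 0.00866), and both comparisons share the GC-WT mice. FL-KO vs. GC-KO (0.11, exact permutation, adjusted p 0.527) and FL-KO vs. FL-WT (0.15, exact permutation, adjusted p 0.221) did not pass. With GC content and length trends removed, GC-KO vs. GC-WT went to 0.27 (exact permutation, adjusted p 0.0831) and FL-WT vs. GC-WT to 0.39 (exact permutation, adjusted p 0.00866).

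**Figure D5:**
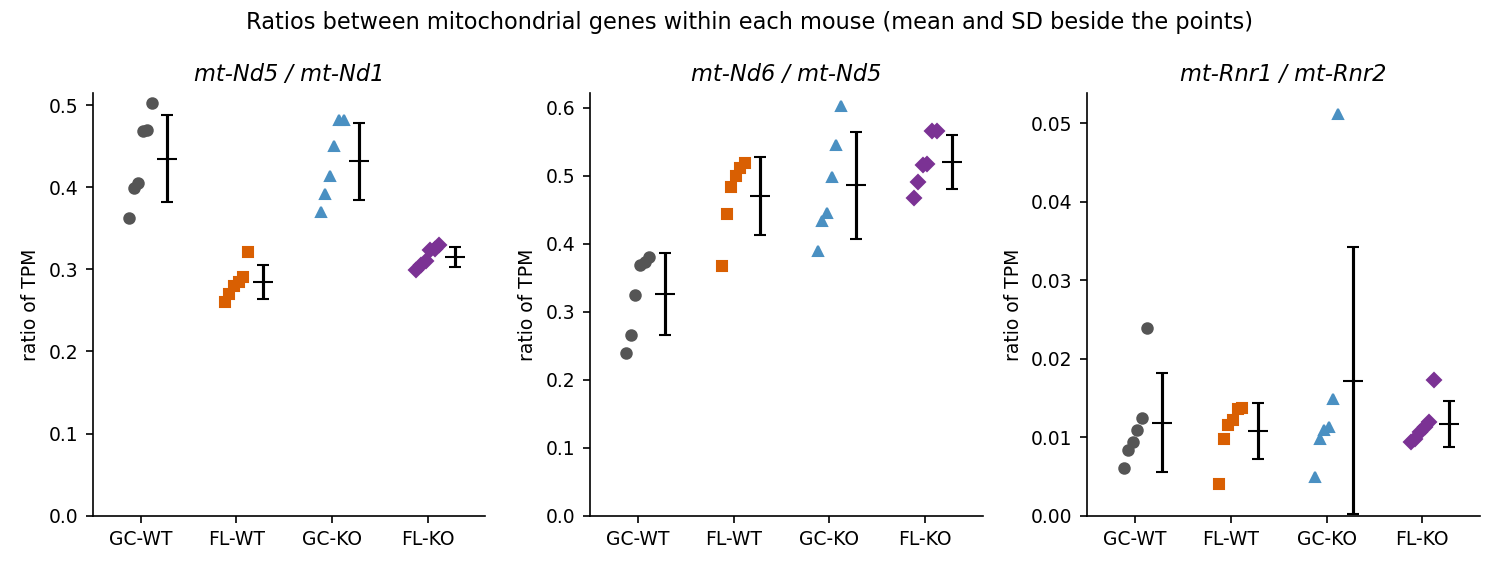
Ratio of TPM between mitochondrial genes in each mouse by group, with the mean and SD of 6 mice beside the points. For mt-Nd5 to mt-Nd1 all flight mice lie at 0.329 or below and all ground mice at 0.363 or above, and GC-KO mouse 12 stands apart at 0.0513 for mt-Rnr1 to mt-Rnr2.

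The rRNAs passed in no comparison. mt-Rnr2 was at 448, 1412 and 2614 TPM (lowest, median and highest) in GC-WT mice and at 838, 1852 and 4179 TPM in FL-WT mice. Nrf2-KO mice had 902, 1887 and 2635 TPM on the ground and 1006, 2078 and 2970 TPM after flight. All 4 ranges overlapped, and its log2 fold change in FL-WT vs. GC-WT was 0.49 ± 0.36 (limma adjusted p 0.3). mt-Rnr1 had a median of 13.04, 18.5, 21.1 and 22.8 TPM in the same order, and its largest difference was 0.64 ± 0.35 in GC-KO vs. GC-WT (limma adjusted p 0.155). The ratio of mt-Rnr1 to mt-Rnr2 differed in no comparison beyond the spread between mice (exact permutation, adjusted p from 0.886 to 0.895). The 95% interval of the difference of mt-Rnr2 in FL-WT vs. GC-WT was −0.26 to 1.23. It holds the log2 fold changes of most mRNAs, so a difference of their size is not excluded.

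Nuclear genes provide the partner subunits of the same complexes. Of 73 nuclear subunits tested, 3 (4.11%) rose with flight in wild-type mice, against 0.994% of all genes, and none fell by limma, while 1 fell at an unadjusted p under 0.05. The 3 were Cox7b of cytochrome c oxidase (log2 fold change 0.32), Uqcrb of the cytochrome bc1 complex (0.33) and Ndufa1 of NADH dehydrogenase (0.26). With flight in Nrf2-KO mice 1 rose, Uqcrb, and 14 (19.2%) fell, against 53.1% of all genes. Between genotypes, 20 (27.4%) were higher and 6 (8.22%) lower in Nrf2-KO mice on the ground, against 3.13% and 42.9% of all genes. After flight 3 (4.11%) were higher and 16 (21.9%) lower, against 1.91% and 47.2%. No nuclear subunit was a DEG in the 4 comparisons by limma. Set against all genes, their median log2 fold change was 0.30, 0.18, 0.30 and 0.24 in the same order, against 0.72, 0.46, 0.72 and 0.55 for the mitochondrial mRNAs. With the trends of GC content and of length removed, the nuclear subunits were at 0.14, 0.050, 0.11 and 0.015 and the mitochondrial mRNAs at 0.40, 0.13, 0.046 and −0.17, so the order turned in both comparisons of genotype. Cox4i1, a nuclear subunit of cytochrome c oxidase and the most abundant of the list, averaged 186 ± 40.8 TPM on the ground and 182 ± 29.4 TPM after flight in wild-type mice, beside the level values of mt-Co1. Atp5e and Atp5l, nuclear subunits of the ATP synthase, had log2 fold changes of 0.20 ± 0.17 (limma adjusted p 0.377) and 0.18 ± 0.11 (limma adjusted p 0.199) in FL-WT vs. GC-WT, where mt-Atp6 and mt-Atp8 rose.

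Of 15 tested genes that copy and transcribe mitochondrial DNA, none was higher in the 4 comparisons by limma, nor at an unadjusted p under 0.05, and 3, 3, 3 and 4 were lower in the same order. Of all genes, 39.0, 53.1, 42.9 and 47.2% were lower, against at most 26.7% of this list. Relative to all genes, their median was 0.071, 0.094, 0.16 and 0.21, and with median-of-ratios scaling it was 0.055, 0.12, 0.12 and 0.20. Polg was lower in all 4, with log2 fold changes of −0.33, −0.60, −0.55 and −0.82 (limma adjusted p 0.0758, 0.00218, 0.00315 and 3.53e-05). Polrmt, with group means of 0.383 to 1.94 TPM, was lower in the last 3, at −0.50, −0.58 and −0.83 (limma adjusted p 0.00402, 0.00106 and 1.03e-05). Tfam, which packages mitochondrial DNA and starts its transcription, averaged 6.37 ± 1.55 TPM on the ground and 5.52 ± 1.21 TPM after flight in wild-type mice, with a log2 fold change of −0.17 ± 0.14 (limma adjusted p 0.35). Of 41 genes for mitochondrial RNA processing and stability, none was higher by limma, nor at an unadjusted p under 0.05, and 11, 19, 19 and 23 were lower, which is 26.8, 46.3, 46.3 and 56.1% of the list, beside the shares of all genes just given. Their median relative to all genes was 0.040, 0.0645, −0.0038 and −0.0013, and 0.028, 0.040, −0.0059 and −0.033 with median-of-ratios scaling. Hsd17b10, a part of the enzyme that cuts the 5′ ends of mitochondrial tRNAs, averaged 16.5 ± 2.37 and 17.3 ± 3.99 TPM in the same groups.

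Of 5 tested regulators of mitochondrial biogenesis, 2, 5, 3 and 4 were lower and none was higher by limma, nor at an unadjusted p under 0.05, where 39.0 to 53.1% of all genes were lower. Nrf1 here is nuclear respiratory factor 1, a gene unrelated to Nrf2, which activates nuclear genes for respiration. It averaged 13.5 ± 1.96 TPM on the ground and 10.4 ± 2.55 TPM after flight in wild-type mice (log2 fold change −0.37 ± 0.13, limma adjusted p 0.0405). Pprc1, a coactivator of the same pathway, was the only DEG of the list, lower in FL-KO (0.907 ± 0.238 TPM) than in FL-WT mice (2.90 ± 0.897 TPM), with a log2 fold change of −1.01 ± 0.16 (limma adjusted p 1.07e-05). Of 79 proteins of the mitochondrial ribosome, 0, 0, 2 and 0 were higher (0, 0, 3 and 0 at an unadjusted p under 0.05) and 2, 9, 8 and 15 lower, which is 2.53, 11.4, 10.1 and 19.0% of the list and below the shares of all genes. The most abundant, Mrpl33, had a log2 fold change of 0.28 ± 0.14 in FL-WT vs. GC-WT (limma adjusted p 0.136).

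Markers of muscle, fat and bone, tissues rich in mitochondria or adjacent to the marrow, were near 0, with sums of at most 10.7 TPM in any mouse. At these low levels they still differed between groups. The bone marker Col1a1 was a lower DEG with flight in wild-type (−1.09, limma adjusted p 0.014) and Nrf2-KO mice (−1.18, limma adjusted p 0.0056). The muscle sum was 3.45 to 4.38 TPM in GC-WT and 1.46 to 2.99 TPM in FL-WT mice. The part of these tissues in the mitochondrial values was not tested. The marrow markers were strong, as the erythroid sum was at least 86960 TPM and the neutrophil sum at least 30150 TPM in each library.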

How the data were processed

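The RNA of 24 marrow samples, 6 per group, was sequenced from directional libraries on the DNBSEQ-G400. According to the methods and the submitters' processing notes, the authors mapped reads with STAR 2.6.1 to mm10 and estimated TPM with RSEM 1.3.1, and deposited a TPM table of 54752 genes. The annotation, read counts and depth are not given in the sources used here. Gene names came from GENCODE vM21 (54723 genes matched). Groups followed the labels, and nothing was pooled. Differences were tested with limma 3.58.1 (R 4.3.3) on log2(TPM + 1) over all 24 libraries, fitting each group's mean, for genes above 1 TPM in at least 1 library, and passed at an adjusted p under 0.1, with DEGs also at least 2-fold. Ratios were tested by exact permutation (scipy 1.17.1) and passed at an adjusted p under 0.05. Nuclear copies were found with blastn 2.17.0. Scripts were tested on simulated data. By the naming rule, all 37 members were described by class, and of each other list the counts with the 3 most abundant genes and those that passed where 5 or fewer did, of which the text prints examples. The members and lists were chosen with earlier results of these data known. Alternatives covered the pseudocount, filter, scaling, thresholds, copies, GC content and length, and each mouse left out.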

Additional observations from a re-analysis of the deposited data

Results flagged for a closer look

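A value was listed when the highest or lowest mouse of a group of 6 stood far from the other 5 by Dixon's test at the 95% level. Of 80 groups looked at, 17 were listed, and chance alone would give about 1 in 20. FL-WT mouse 10 was far above the other 5 mice of its group for mt-Nd1 (909 TPM, others 420 to 575), mt-Nd2 (295 TPM, others 136 to 192), mt-Co2 (917 TPM, others 475 to 639), mt-Atp8 (1989 TPM, others 359 to 570), mt-Co3 (1753 TPM, others 1036 to 1193) and mt-Nd6 (126 TPM, others 58.8 to 72.3). The 13 mRNAs together took 1.41% of TPM in that mouse, against 0.742 to 0.885% in the others. GC-WT mouse 6 was far above its group for mt-Nd2 (273 TPM, others 70.2 to 143), mt-Atp8 (1094 TPM, others 44.9 to 323), mt-Nd4 (628 TPM, others 216 to 349) and mt-Nd5 (294 TPM, others 95.9 to 157), and for the summed mRNAs (1.10% of TPM, others 0.511 to 0.653%).

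FL-WT mouse 6 was below its group for mt-Atp6 (593 TPM, others 748 to 830). GC-KO mouse 12 was far above its group for mt-Rnr1 (98.3 TPM, others 7.26 to 25.7) and for the ratio of mt-Rnr1 to mt-Rnr2 (0.0513, others 0.00488 to 0.0149). The same ratio stood out in GC-WT mouse 10 (0.0240, others 0.00613 to 0.0124) and in FL-KO mouse 4 (0.0173, others 0.00934 to 0.0120).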

How the results depend on the processing

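Counts of mitochondrial mRNAs that were DEGs moved with the processing. FL-WT vs. GC-WT gave 1 as reported, 4 with median-of-ratios scaling, 0 when the compared groups were fitted alone and 7 with no minimum fold. FL-KO vs. GC-KO gave 0 as reported, 1 with median-of-ratios scaling, 1 with GC content and length trends removed and 2 with no minimum fold. GC-KO vs. GC-WT gave 1 as reported, 3 with median-of-ratios scaling, 2 with quantile normalization and 8 with no minimum fold. It gave 0 with no filter, without the 5 small RNAs, with scaling to other genes, with GC content and length trends removed, with the compared groups alone and at an adjusted p under 0.05. FL-KO vs. FL-WT gave 0 as reported and 3 with no minimum fold, of which 2 were higher and 1 lower. Calls over all genes moved as well, so counts of different settings cannot be compared directly. At any fold, 0.994, 0.299, 3.13 and 1.91% of all genes were higher as reported, in the order just used. With median-of-ratios scaling these shares were 17.4, 18.1, 29.8 and 35.2%. Leaving out a mouse gave 0 to 1, 0 to 0, 0 to 2 and 0 to 0 in the order above, and 0 to 0 for the interaction.

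The median of the mRNAs relative to all genes in GC-KO vs. GC-WT went from 0.72 to 0.30 with quantile normalization and to 0.046 with GC content and length trends removed, and in FL-KO vs. FL-WT from 0.55 to −0.17 with the latter. Leaving out a mouse kept it at 0.57 to 0.91 in FL-WT vs. GC-WT, 0.35 to 0.54 in FL-KO vs. GC-KO, 0.65 to 0.80 in GC-KO vs. GC-WT and 0.49 to 0.69 in FL-KO vs. FL-WT. With GC content and length trends removed from the ratios, an alternative chosen after seeing the data, mt-Nd6 to mt-Nd5 went to 0.27 (exact permutation, adjusted p 0.0831) in GC-KO vs. GC-WT and to −0.11 in FL-KO vs. FL-WT, and mt-Nd5 to mt-Nd1 to 0.21 in GC-KO vs. GC-WT. Leaving out a mouse moved the log2 difference of mt-Nd5 to mt-Nd1 between 0.13 and 0.19 in FL-KO vs. FL-WT and between −0.059 and 0.035 in GC-KO vs. GC-WT, and that of mt-Rnr1 to mt-Rnr2 between −0.26 and 0.16, −0.45 and 0.23, −0.14 and 0.54, and −0.074 and 0.28, in the order used above.

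Of 750 values of single genes under other settings, 698 kept their direction and side of the DEG thresholds. A further 8 became DEGs, 6 were no longer DEGs, and 38 had the opposite sign with neither value a DEG. By adjusted p alone more moved, since the count of higher mRNAs in GC-KO vs. GC-WT ran from 0 to 13 over these settings. mt-Nd3 in FL-KO vs. FL-WT, which passed at −0.33, was among those that turned sign. With GC content and length trends removed, log2 fold changes in FL-KO vs. FL-WT became −0.13 for mt-Rnr1 and mt-Rnr2, −0.22 for mt-Nd1, −0.11 for mt-Nd2, −0.26 for mt-Co2 and −0.19 for mt-Nd4l. In GC-KO vs. GC-WT they became −0.085 for mt-Nd1, −0.25 for mt-Co2, −0.056 for mt-Nd4l and −0.11 for mt-Nd4, and in FL-KO vs. GC-KO 0.035 for mt-Nd4l. With median-of-ratios scaling mt-Atp6 became 0.34, mt-Co3 0.41 and mt-Nd3 0.11 in FL-KO vs. FL-WT, and mt-Co3 became 0.38, mt-Nd3 0.22 and mt-Nd4l 0.37 in FL-KO vs. GC-KO. With quantile normalization mt-Co3 became 0.25, mt-Nd3 0.11 and mt-Nd4l 0.066 in FL-KO vs. GC-KO, mt-Co3 0.15 in FL-KO vs. FL-WT, and mt-Co1 −0.031 and mt-Nd4 −0.034 in FL-WT vs. GC-WT. Without the 5 small RNAs mt-Co1 became −0.0045 and mt-Nd4 −0.0061 in FL-WT vs. GC-WT, mt-Co3 0.12 and mt-Nd4l 0.11 in FL-KO vs. GC-KO, and mt-Co3 0.049 in FL-KO vs. FL-WT. With scaling to other genes the last 3 became 0.13, 0.12 and 0.054. With nuclear copies added, of at least 300 or, chosen after seeing the data, 200 bases, mt-Atp6 became 0.085 and mt-Co3 0.12 in FL-KO vs. FL-WT and mt-Co3 0.066 in FL-KO vs. GC-KO, and mt-Nd4l 0.24 there with the 200-base limit. Leaving out a mouse turned the sign of mt-Co1 (−0.11 to 0.13), mt-Nd4 (−0.14 to 0.21), mt-Nd4l (−0.052 to 0.35) and mt-Nd5 (−0.070 to 0.26) in FL-WT vs. GC-WT, of mt-Co1 (−0.035 to 0.046), mt-Co3 (−0.13 to 0.016), mt-Nd4l (−0.18 to 0.067), mt-Nd5 (−0.047 to 0.13) and mt-Rnr1 (−0.27 to 0.45) in FL-KO vs. GC-KO, and of mt-Co3 (−0.081 to 0.070), mt-Nd4l (−0.057 to 0.19) and mt-Rnr2 (−0.087 to 0.38) in FL-KO vs. FL-WT. The cause was not tested.

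Mouse numbers are shared by flight and ground mice of a genotype, and whether they mark pairs is not given in the sources used here. Deviations of same-numbered mice correlated at −0.0265 to 0.273, and 3 of 12 correlated best with their own number. The reported tests took the mice as unpaired. With the number as a replicate block, the DEG counts stayed at 1 and 0, and the ratios kept their values (0.55 for mt-Nd6 to mt-Nd5 in FL-WT vs. GC-WT, −0.61 and −0.45 for mt-Nd5 to mt-Nd1), with adjusted p from 0.0938 to 0.125 by exact permutation, since the smallest p of 6 pairs is 0.0312.

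Depth is unknown, so no counting error can be given. Levels of genes that share bases or have nuclear copies are uncertain, tRNAs were not measured, and flight and place cannot be told apart.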
